A study of Sus scrofa with 18 samples.

Results

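Serine is made inside cells in 3 steps: PHGDH oxidises a glycolytic intermediate, PSAT1 transfers an amino group to it, and PSPH removes the phosphate. Serine then hands 1 carbon to folate, and the folate cycle passes such carbons on to purines, thymidylate and methionine, which growing tissue needs. Folate itself enters cells through a carrier, a transporter or the membrane-anchored folate receptors, and FOLR1 is the receptor of epithelia. In the pig the uterine glands and the surface epithelium feed the conceptus before and after it attaches, and the trophoblast then covers the endometrium.

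The expression of these 4 genes was followed in the endometrium of pregnant Meishan and Yorkshire gilts on gestational day (GD) 15, 26 and 50. All probe sets of the porcine Affymetrix array that the platform annotation names PHGDH, PSAT1, PSPH or FOLR1 were taken, which gave 5 of the 24123 probe sets, and all 5 passed the filter on dim probe sets that left 9320. The genes were chosen by their changes between days in these same arrays, so those changes are given as a description with no test. The breed difference on the same day, which the choice of genes does not name, was taken as not used in it and was tested. That is an assumption, since the genes were chosen with earlier results of these arrays known. The adjusted p-values of the breed differences rest on it. No further probe set carries the gene identifier of any of them.

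The 6 groups are Meishan GD15, GD26 and GD50 and Yorkshire GD15, GD26 and GD50, with 3 arrays each and 18 in all. The gilts were of similar age and weight and pregnant by boars of their own breed. Each array held a pool of RNA from 2 gilts, 1 attachment site from each, and the same 2 gilts served all 3 arrays of their group. A p-value here therefore covers how attachment sites vary and says nothing of how gilts vary. Values are deposited log2 intensities, an intensity of 100 (6.64 on the log2 scale) is the level of the filter, and a signal under it counts as dim. In tests, a probe set was called where the Benjamini-Hochberg adjusted p of limma over the 9320 was under 0.05.

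Before the results, 6 arrays have to be named. The Yorkshire arrays of GD26 and GD50 had hybridization controls at a mean log2 intensity of 11.71 to 13.67, against 9.997 to 11.33 on the other 12, and their median over the 9320 probe sets was 7.78 to 8.13 against 8.31 to 8.40. The median breed difference of all probe sets, Yorkshire minus Meishan, was accordingly -0.02 on GD15, -0.42 on GD26 and -0.46 on GD50 (log2), and the median change of Yorkshire from GD15 to GD26 was -0.47. The breed differences of GD26 and GD50 are therefore given below also after centring each array on its median, after quantile normalization and after cyclic loess, which brought these medians to between -0.19 and -0.01. All 8 epithelial markers were above 100 in every group, and their summed intensity ran from 26647 to 39434 over the 18 arrays. Of the 5 measured stromal markers, VIM, DCN and LUM lay between 11.99 and 14.01 (log2) on all arrays. COL3A1 was under 100 on all arrays, and COL1A2 was above it in Yorkshire GD26 and GD50 only. The summed stromal intensity ran from 22689 to 39070. Of the 5 measured leukocyte markers, PTPRC and CD3E were under 100 on all arrays. CD2 and CD14 were so in most groups, and CD163 in Yorkshire GD15 only.

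PHGDH catalyses the first and committed step of serine synthesis. Its gene (100144529) lies on chromosome 4 from 101445977 to 101478144 in the RefSeq annotation of Sscrofa11.1; the deposited files give no coordinates. In Meishan endometrium the log2 intensities were 11.47, 11.14 and 10.96 on GD15, 6.07, 6.23 and 6.09 on GD26, and 6.89, 7.59 and 7.44 on GD50. In Yorkshire they were 9.81, 10.08 and 9.87 on GD15, 6.13, 6.87 and 6.42 on GD26, and 6.88, 6.23 and 6.95 on GD50. The GD15 arrays stood above all later arrays in both breeds, and the Meishan GD26 arrays were all dim. From GD15 to GD26 PHGDH was at least 23.3-fold lower in Meishan and 10.9-fold lower in Yorkshire. In Yorkshire 2 of the 3 GD26 arrays were dim, and the log2 change of -3.45 became -3.13 to -2.92 after the 3 rescalings. From GD26 to GD50 it was at least 1.58-fold higher in Meishan, with no overlap between the arrays, while in Yorkshire the arrays of both days overlapped and the mean differed by 0.22 (log2).

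PSAT1, the aminotransferase of the second step, showed the widest range of the 3 enzymes in Yorkshire. It is gene 100154160 on chromosome 1, from 231142673 to 231172364. The Meishan values were 13.29, 13.11 and 13.12 on GD15, 8.49, 8.64 and 8.36 on GD26, and 9.07, 9.09 and 8.95 on GD50 (log2 intensity). The Yorkshire values were 13.20, 13.28 and 13.66 on GD15, 7.78, 6.98 and 7.62 on GD26, and 8.62, 8.35 and 8.44 on GD50. No 2 days overlapped within a breed, and unlike PHGDH no array was dim. The level on GD26 was 25.6-fold lower than on GD15 in Meishan and 60.6-fold lower in Yorkshire, and from GD26 to GD50 it was 1.45-fold and 2.01-fold higher.

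PSPH, the phosphatase that releases free serine, differed from both in its second step. It is gene 100316854 on chromosome 3, from 16877904 to 16903062. It read 14.36, 14.19 and 14.68 on GD15, 12.49, 12.48 and 12.34 on GD26, and 11.18, 11.21 and 11.22 on GD50 in Meishan (log2 intensity). The Yorkshire arrays read 14.26, 14.36 and 14.45, then 12.75, 12.82 and 12.79, then 11.47, 11.23 and 11.24. The days did not overlap in either breed, and each later day was lower. The Meishan level was 3.92-fold lower on GD26 than on GD15 and a further 2.35-fold lower on GD50, and the Yorkshire level 2.97-fold and 2.78-fold lower. From GD15 to GD26 the Yorkshire log2 change was -1.57, against a median of -0.47 over all probe sets. It went to as little as -1.18 after the rescalings. Between GD26 and GD50 PHGDH and PSAT1 thus had higher means in both breeds where PSPH had lower ones.

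**Figure D1:**
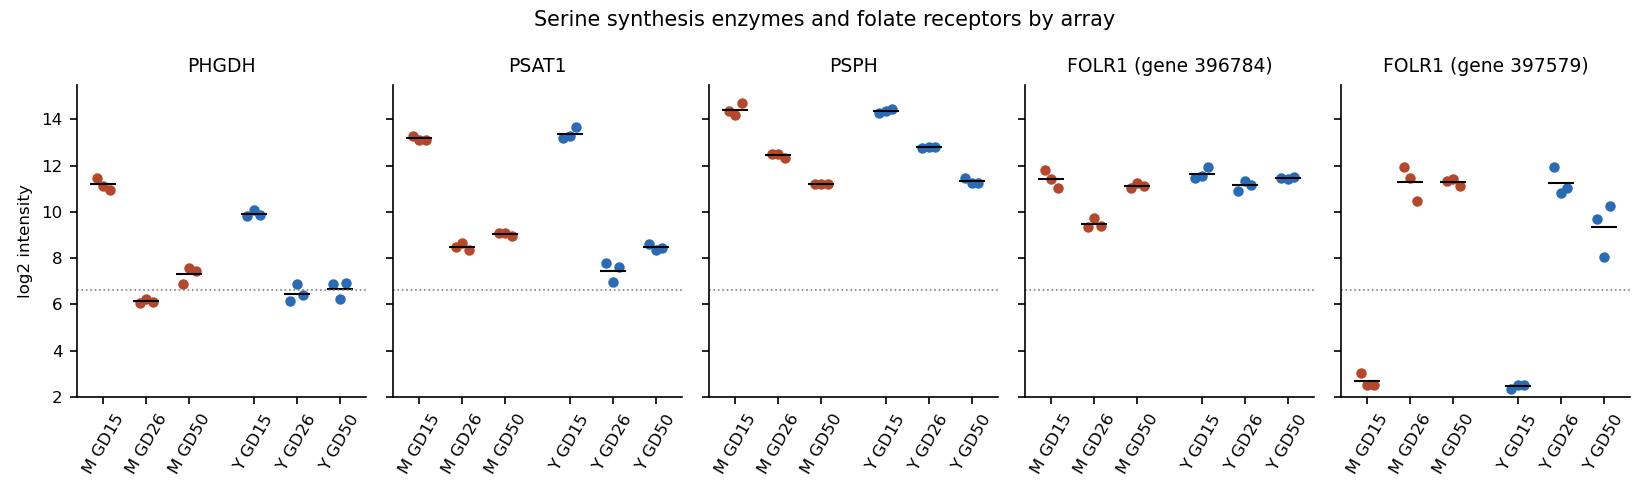
Log2 intensity (y axis) of each probe set on the 18 arrays, in the 3 Meishan (M, red) and 3 Yorkshire (Y, blue) groups; points are arrays, black bars group means, and the dotted line an intensity of 100. The GD15 arrays are the highest for the 3 serine enzymes, whereas FOLR1 (gene 397579) is between 2.37 and 3.03 on GD15 and between 8.07 and 11.94 later.

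The name FOLR1 stands for 2 genes here, and they did not run together. In Sscrofa11.1 they are neighbours on chromosome 9: gene 396784 from 6746014 to 6750431 and gene 397579 from 6753513 to 6760433, with 3081 bases between them. FOLR2, another folate receptor, lies beyond them from 6785308 to 6790466, with LOC106510709 (6772909 to 6784441) in between.

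FOLR1 gene 396784 was bright on every array. In Meishan the log2 intensities were 11.80, 11.43 and 11.05 on GD15, 9.34, 9.73 and 9.40 on GD26, and 11.03, 11.24 and 11.14 on GD50. In Yorkshire they were 11.48, 11.55 and 11.93 on GD15, 10.92, 11.33 and 11.18 on GD26, and 11.47, 11.41 and 11.50 on GD50. The Meishan GD26 arrays were the 3 lowest of the 18, and the Meishan GD15 and GD50 arrays overlapped. The Meishan mean was 3.84-fold lower on GD26 than on GD15 and 3.14-fold higher again on GD50. In Yorkshire the corresponding differences were -0.51 and 0.32 (log2), and the first was close to the median of all probe sets, -0.47; after median centring it was -0.11.

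FOLR1 gene 397579 was dim on all 6 arrays of GD15, at 3.03, 2.53 and 2.51 in Meishan and 2.37, 2.51 and 2.51 in Yorkshire (log2 intensity). On GD26 it read 11.93, 11.48 and 10.48 in Meishan and 11.94, 10.80 and 11.01 in Yorkshire. On GD50 the Meishan arrays read 11.31, 11.40 and 11.10 and the Yorkshire arrays 9.71, 8.07 and 10.26. The GD26 level was thus at least 25.1-fold above GD15 in Meishan and at least 24.3-fold in Yorkshire, with the filter level standing for the dim group. The Meishan arrays of GD26 and GD50 overlapped, whereas the Yorkshire GD50 arrays all lay under those of GD26, by 3.74-fold in the mean (log2 difference -1.90, or -1.26 without Yorkshire GD50 array 2). The probe set of gene 397579 was near the lowest deposited value, 2.18, on days when that of gene 396784 was bright. That of gene 396784 was at its lowest in Meishan on GD26, when that of gene 397579 was at 10.48 or more. Probe sequences were not used here, so shared binding between the 2 genes was not tested further.

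Of the 5 probe sets, 4 were lower and 1 higher on GD26 than on GD15 in each breed, with no overlap between the days. In that comparison limma called 27.1% of all 9320 probe sets lower and 23.8% higher in Meishan. In Yorkshire it called 44.9% lower and 20.3% higher. These calls, and those given next, are a measure unlike overlap. The share of all probe sets without overlap is not given here. From GD26 to GD50, where 8.2% rose and 10.2% fell in Meishan and 5.72% rose and 7.85% fell in Yorkshire, the probe sets that did not overlap were 3 higher and 1 lower in Meishan, and 2 higher and 2 lower in Yorkshire. Since the genes were picked on these changes, nothing is read from the counts.

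The order of the 6 groups also differed by gene. For PHGDH it was Meishan GD15 (11.19 ± 0.26 log2 intensity, SD, n = 3), Yorkshire GD15 (9.92 ± 0.14), Meishan GD50 (7.31 ± 0.37), Yorkshire GD50 (6.69 ± 0.40), Yorkshire GD26 (6.47 ± 0.37) and Meishan GD26 (6.13 ± 0.09), and neighbours from the third place down overlapped. For PSAT1 both GD15 groups overlapped at the top (13.38 ± 0.25 and 13.17 ± 0.10), Meishan GD26 (8.49 ± 0.14) and Yorkshire GD50 (8.47 ± 0.14) overlapped in the middle, and Yorkshire GD26 (7.46 ± 0.43) was lowest with no overlap. For PSPH the days came first, both breeds of GD15, then of GD26, then of GD50, and only the GD15 groups overlapped. For FOLR1 gene 396784 the first 5 groups overlapped neighbour by neighbour, from 11.65 ± 0.24 in Yorkshire GD15 to 11.14 ± 0.10 in Meishan GD50. For gene 397579 both GD26 groups and Meishan GD50 overlapped at 11.25 to 11.29.

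Whether the breeds differed on the same day was then tested in 1 limma fit over the 18 arrays. On GD15 the breeds differed in PHGDH alone of the 5 probe sets: Yorkshire was lower by 2.41-fold (log2 difference -1.27 ± 0.23 SE, adjusted p = 0.00186 by limma), with all 3 Yorkshire arrays under all 3 Meishan arrays. Over all probe sets 4.87% were lower and 4.92% higher in Yorkshire on that day, when the median difference was near 0. PHGDH remained called in every alternative and without any single array, with a difference between -1.38 and -1.13. The other enzymes gave 0.21 for PSAT1 (95% interval -0.19 to 0.61) and -0.06 for PSPH (-0.35 to 0.24), so differences of the size seen for PHGDH lay outside both intervals. FOLR1 gene 396784 gave 0.23 (-0.18 to 0.63), and gene 397579, dim in both breeds, is given no difference.

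On GD26, 3 of the 5 probe sets were called: 2 higher and 1 lower in Yorkshire, when 10.7% of all probe sets were higher and 42.5% lower. FOLR1 gene 396784 was 3.16-fold higher in Yorkshire (1.66 ± 0.19 log2, adjusted p = 5.66e-06 by limma), against the direction of most probe sets, and the 3 rescalings put it at 1.79 to 2.01. PSAT1 was 2.05-fold lower in Yorkshire (-1.04 ± 0.19, adjusted p = 3.43e-04), and after rescaling the difference was -0.72 to -0.68 and still called. PSPH was higher by 0.35 ± 0.14 (adjusted p = 0.0435). That call was lost after quantile normalization (0.36) and without any one of 12 of the 18 arrays (0.30 to 0.37), namely every array of both GD26 groups, of Meishan GD50 and of Yorkshire GD15, while median centring gave 0.70. For PHGDH the difference was 0.34 (95% interval -0.16 to 0.84; adjusted p = 0.234), and it was called after each rescaling, at 0.69 to 0.81. The Meishan arrays were all dim there, as were 2 of the 3 Yorkshire arrays, and setting values under 100 to 100 left a difference of 0.07. FOLR1 gene 397579 differed by -0.05 (-1.01 to 0.92).

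On GD50, 3 of the 5 probe sets were lower in Yorkshire and none higher, when 45.6% of all probe sets were lower and 10.9% higher, so the count is near the background. FOLR1 gene 397579 was 3.80-fold lower in Yorkshire (-1.92 ± 0.46 log2, adjusted p = 0.00235 by limma). The rescaled differences were -1.70 to -1.39, and without Yorkshire array 2, the lowest, it was -1.28 and still called. PSAT1 was lower by 0.56 (log2 difference -0.56 ± 0.19, adjusted p = 0.0185) and PHGDH by 0.62 (-0.62 ± 0.23, adjusted p = 0.0345). After rescaling PSAT1 stood at -0.24 to -0.15 and PHGDH at -0.20 to -0.08, and neither was called. The PSAT1 call was also lost without Meishan GD50 array 1 (-0.55) or 2 (-0.54) or Yorkshire GD50 array 2 (-0.50), and the PHGDH call without Meishan GD50 array 2 (-0.47) or 3 (-0.55) or Yorkshire GD50 array 2 (-0.39). PSPH differed by 0.11 (-0.18 to 0.40), called after median centring only (0.52), and FOLR1 gene 396784 by 0.33 (-0.08 to 0.73), called after median centring (0.74) and cyclic loess (0.55).

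**Figure D2:**
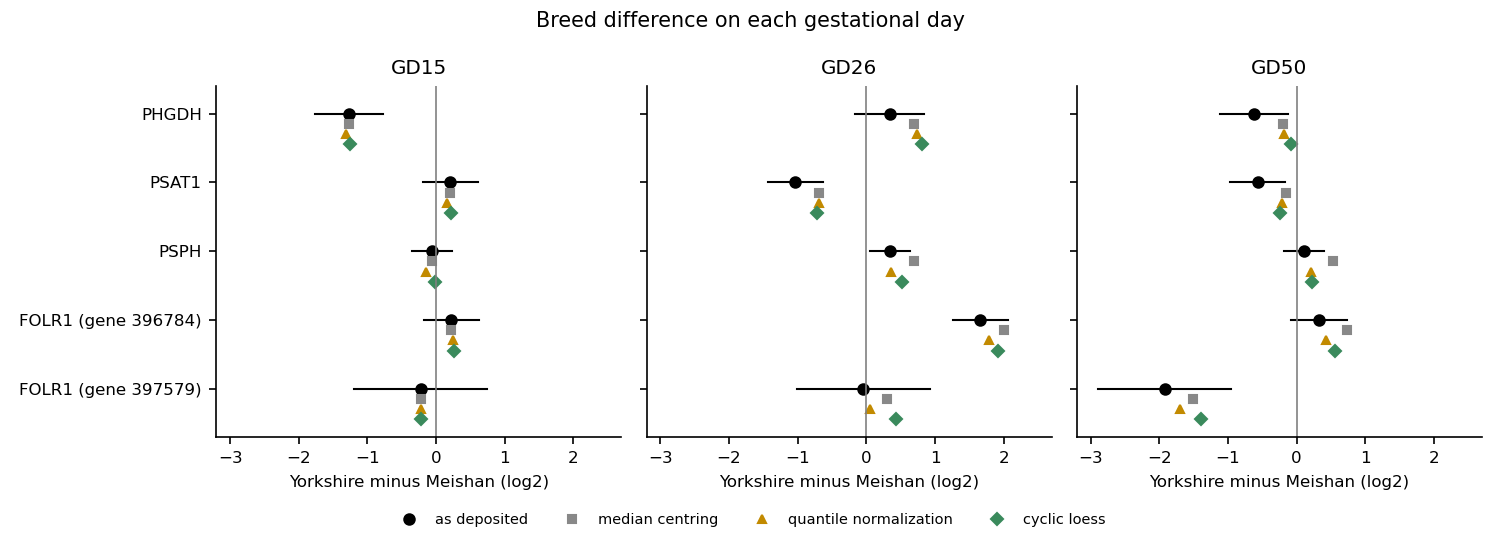
Yorkshire minus Meishan difference (log2, x axis) of each probe set on GD15, GD26 and GD50; black points with 95% intervals are from the deposited values, the other symbols from 3 rescalings of the arrays. PHGDH on GD15, FOLR1 (gene 396784) and PSAT1 on GD26 and FOLR1 (gene 397579) on GD50 keep their side of 0 and their call in all 4, while PHGDH and PSAT1 on GD50 move towards 0.

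Over the same days the samples differed in the trophoblast markers they held, and all 8 of these were measured. On GD15, 7 of the 8 were under 100 on all arrays of both breeds, with GATA2 the exception, and their summed intensity was 304 to 440. It was 27298 to 51070 in Meishan and 51362 to 61661 in Yorkshire on GD26, and 61481 to 71262 in Meishan and 36723 to 55232 in Yorkshire on GD50. TFAP2C stayed under 100 on all arrays. FOLR1 gene 397579 shared with GATA3, PAG6, PLET1 and PPAG3 the dim level on GD15 and the bright level on every later array. Between the breeds the markers went both ways. On GD50 PAG6 and PPAG3, both pregnancy-associated glycoproteins, and GATA2 were lower in Yorkshire without overlap (mean differences -0.78, -1.38 and -0.99, log2). FOLR1 gene 397579 was likewise lower without overlap, whereas GATA3 (0.81) and PLET1 (-0.23) overlapped. GATA3 stands here for its brightest probe set, and another is given below. On GD26, when FOLR1 gene 397579 differed by -0.05, GATA3 (1.58) and PAG6 (1.28) were higher in Yorkshire without overlap. PLET1 (0.16), PPAG3 (0.14) and GATA2 (-0.47) overlapped on that day. HAND1 was dim on all Meishan arrays of GD26 and GD50, and the Yorkshire arrays lay above them without overlap on both days. The Yorkshire arrays read 7.81, 7.90 and 6.94 on GD26 and 6.83, 5.22 and 7.33 on GD50 (log2 intensity). CYP17A1 was dim on all Meishan arrays of both days. In Yorkshire it read 6.99, 6.37 and 5.88 on GD26 and was dim on GD50. As Meishan was dim, no log2 difference is given for HAND1 or CYP17A1. These marker differences are on the deposited scale.

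The arrays within a group ran together for FOLR1 gene 397579, GATA3, PAG6 and PLET1 in some groups, and for part of them in others. In Yorkshire on GD50 array 2 was the lowest and array 3 the highest for FOLR1 gene 397579 (8.07 and 10.26 log2 intensity), for GATA3 (8.36 and 9.68), for PAG6 (13.61 and 14.45) and for PLET1 (14.47 and 14.86). In Meishan on GD26 array 3 was the lowest for each of these, with FOLR1 gene 397579 at 10.48 and PAG6 at 11.79. In Yorkshire on GD26 PAG6 and PLET1 were highest on array 1 (14.58 and 14.98) and lowest on array 2 (14.14 and 14.83), as was FOLR1 gene 397579. GATA3 there was lowest on array 1 (10.49) and highest on array 2 (10.65). In Meishan on GD50 array 3 was the lowest for FOLR1 gene 397579, GATA3 (7.78) and PAG6 (14.79), while PLET1 was lowest on array 1 (14.80). In such bulk RNA fewer cells of a type and less RNA per cell cannot be told apart, and the part of trophoblast in the level of FOLR1 gene 397579 was not tested.

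**Figure D3:**
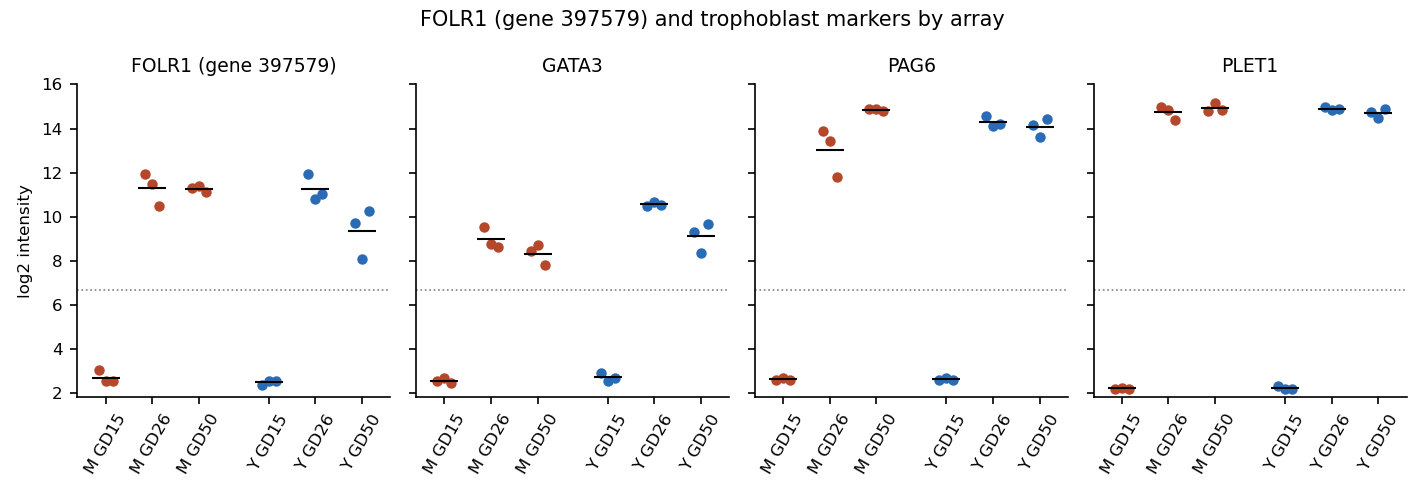
Log2 intensity (y axis) of FOLR1 (gene 397579) and of the trophoblast markers GATA3, PAG6 and PLET1 on the 18 arrays, by group (Meishan red, Yorkshire blue); points are arrays, bars group means, the dotted line an intensity of 100. All 4 lie under 3.1 on GD15 and above 7.7 on GD26 and GD50.

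The epithelial markers went both ways beside the serine enzymes. Their summed intensity went from 36718 to 39434 in Meishan on GD15 to 33750 to 37098 on GD26, and from 33860 to 37846 in Yorkshire to 29195 to 30465, so that the Yorkshire days did not overlap. Beside this, the median change of all probe sets was -0.47 in Yorkshire and -0.06 in Meishan (log2). The epithelial values, and those of the gland markers below, were not rescaled. Without overlap between these days, 3 of the 8 were higher and 3 lower on GD26 in Meishan, and 3 higher and 4 lower in Yorkshire. KRT19 was higher by 1.85 and 2.32 in Meishan and Yorkshire (log2 difference of means), while KRT18 (-1.27 and -1.11) and KRT8 (-0.93 in both) were lower.

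The uterine gland markers, all 6 measured, went the other way in sum, from 58073 to 73959 to 114259 to 129308 in Meishan and from 59069 to 71025 to 132775 to 147228 in Yorkshire. SPP1 (3.07 and 2.64, log2 difference of means in Meishan and Yorkshire) and ACP5 (0.91 and 0.52) were higher on GD26, but FOXA2, a transcription factor of gland cells, was lower without overlap (-1.22 and -1.80). The salivary lipocalin SAL1 was between 10.15 and 11.54 (log2) on GD15 and dim on all later arrays. The part of these cells in the enzyme levels was not tested.

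The genes most like each probe set were sought among the other named probe sets past the filter, by Pearson's r over the 18 arrays, which share their groups and, within a group, their gilts. PHGDH and PSAT1 correlated at 0.95 with each other and at 0.80 and 0.81 with PSPH, and FOLR1 gene 397579 correlated with PSAT1 at -0.95 and with FOLR1 gene 396784 at -0.53. Nearest to PHGDH were NDUFA1 (r = 0.985), a subunit of respiratory complex I, the mucosal chemokine CCL28 (0.969), LOC100517803 (0.966), the epithelial keratin KRT8 (0.961) and RUSC1 (0.961). All 5 of these, chosen by correlation over the same arrays, had the higher GD15 mean in Meishan. CCL28 differed most, with 10.44 ± 0.14 in Meishan and 8.32 ± 0.53 in Yorkshire (log2 intensity, SD, n = 3). KRT8 differed least, with 12.86 ± 0.09 and 12.69 ± 0.13. Nearest to PSAT1 were the Ras-like GTPase DIRAS3 (0.978), SLC38A1 (0.978), MXI1 (0.971), the calcium sensor NCALD (0.971) and SAL1 (0.970). SLC38A1 is a carrier of glutamine, serine and other neutral amino acids. PSPH was nearest to PHYH (0.984), a peroxisomal hydroxylase, LOC100510975 (0.979), cyclin I (CCNI, 0.970), PGRMC1 (0.963) and LOC100517166 (0.961).

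The FOLR1 genes had different neighbours. For gene 396784 the best values were lower, with SLC9A3R1 at 0.874, FNDC1 at 0.845, the calcium-binding S100A1 at 0.830, CDV3 at 0.823 and the vesicle protein VAMP8 at 0.819. Gene 397579 was nearest to STAR (0.996), which brings cholesterol into mitochondria, GATA3 (0.993), CYP11A1 (0.992), the enzyme that starts steroid synthesis, LOC100523945 (0.992) and TMEM45A (0.991). This GATA3 probe set is not the brightest one, which was the marker above. It read 8.94 ± 0.59 in Meishan and 9.30 ± 0.12 in Yorkshire on GD26, and 8.79 ± 0.61 and 7.99 ± 0.86 on GD50. On GD50 the GATA3 probe sets thus put the breed means in opposite order. STAR read 2.43 ± 0.42 and 2.40 ± 0.18 on GD15 in Meishan and Yorkshire, 10.60 ± 0.81 and 10.32 ± 0.60 on GD26, and 9.95 ± 0.44 and 8.22 ± 0.90 on GD50, so that it too was lowest in Yorkshire among the later groups.

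The enzymes and receptors stand among genes that use serine and folate. A list of 86 such genes, the 4 above left out, held 50 with a probe set and 32 past the filter. From GD15 to GD26, 11 of the 32 rose and 8 fell in Meishan and 9 rose and 11 fell in Yorkshire, with medians of 0.10 and -0.16 (log2) against -0.06 and -0.47 over all probe sets. Of these, 9 rose and 6 fell in both breeds. Beside these counts stand 23.8% of all probe sets that rose and 27.1% that fell in Meishan, and 20.3% and 44.9% in Yorkshire. Over the alternatives, the count of list genes that rose was 10 to 13 and of those that fell 5 to 8 in Meishan, and 9 to 14 and 6 to 11 in Yorkshire. The test of the breed difference in change called 9 of the 32 from GD15 to GD26, 2 higher and 7 lower, against 35.5% of all probe sets, and 1 of 32 from GD26 to GD50 against 4.37%. That 1 gene, CHDH, was dim in all 4 groups of the comparison and is given no value.

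Amino acid carriers and the asparagine branch were among the genes that rose. SLC1A5, a carrier of neutral amino acids, rose by 2.05 ± 0.15 in Meishan and 2.26 ± 0.25 in Yorkshire (log2 change ± SE), and SFXN1, which takes serine into mitochondria, was at least 1.25-fold and at least 2.28-fold higher. SERINC2, named as a serine incorporator, was at least 1.55-fold and at least 2.85-fold higher. ASNS, which makes asparagine and is a target of the amino acid response factor ATF4, rose by 1.66 ± 0.14 and 1.48 ± 0.19. ATF4 itself, which also drives PHGDH, PSAT1 and PSPH in other tissues, gave -0.15 and 0.13 with no call (adjusted p = 0.405 and 0.510 by limma), while the stress-response factors ATF3 (0.91 and 1.94) and CEBPB (1.11 and 1.41) rose. Of the 6 measured genes of the amino acid response, ASNS, ATF3 and CEBPB were the 3 that rose, and 1 fell in each breed. DDIT3, another stress-response factor, was at least 2.73-fold lower in Yorkshire, with -0.62 and no call in Meishan (adjusted p = 0.0778 by limma). VLDLR, a lipoprotein receptor, fell in Meishan (-0.56 ± 0.20, adjusted p = 0.0423 by limma), a call lost after median centring and without any 1 of 7 of the 9 Meishan arrays (all but GD15 array 2 and GD26 array 1), and gave 0.48 with no call in Yorkshire. SLC38A1 fell by 2.04 ± 0.13 in Meishan and by 2.35 ± 0.21 in Yorkshire. Of the 4 measured genes that pass serine to lipids or are named as serine incorporators, SERINC1 (-0.80 ± 0.20) and SERINC3 (-1.08 ± 0.26) fell in Yorkshire and gave -0.30 and 0.05 with no call in Meishan. The other probe set of SERINC1 ran the opposite way, and both calls were lost with Yorkshire GD26 array 1 alone. PTDSS1, which builds phosphatidylserine, gave -0.25 and -0.47 with no call.

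In folate handling, GGH, which trims the glutamate tail of folates, rose by 1.77 ± 0.12 in Meishan and 1.55 ± 0.21 in Yorkshire, and MTHFD1, which interconverts the carbon-carrying folates of the cytosol, by 1.18 ± 0.22 and 1.06 ± 0.19. FOLR2, another receptor gene of the chromosome 9 locus, fell by 0.67 ± 0.22 and 1.58 ± 0.23 and then rose by 1.64 ± 0.22 and 1.09 ± 0.23 from GD26 to GD50. ALDH1L1 and MTFMT, which use formyl-folate, also fell (log2 change -1.30 and -0.67 in Meishan, -1.03 and -1.40 in Yorkshire). On GD26 ALDH1L1 was dim in both breeds and MTFMT in Meishan, so these changes are fitted values and not bounds. ALDH1L1 in Yorkshire was not called under any of the 3 rescalings, and MTFMT was not called in either breed after cyclic loess. MTHFD2, a mitochondrial enzyme of the folate cycle, rose in Meishan (0.82 ± 0.14) and gave -0.43 with no call in Yorkshire, and the changes differed between the breeds (-1.25 ± 0.32, adjusted p = 0.00754 by limma).

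In the methionine cycle, GNMT, which uses S-adenosylmethionine to methylate glycine, was at least 6.06-fold lower on GD26 than on GD15 in Meishan and at least 15.4-fold lower in Yorkshire, in the same direction as the serine enzymes. CHDH, which oxidises choline, was at least 1.20-fold and at least 1.69-fold lower. AHCY, which clears S-adenosylhomocysteine, rose by 1.59 ± 0.15 in Meishan and was at least 2.71-fold higher in Yorkshire. In purine synthesis ATIC rose in Meishan (0.50 ± 0.17) and fell in Yorkshire (-1.92 ± 0.33); the Meishan call was lost without the filter and without any of 5 single arrays (adjusted p up to 0.0848 by limma), namely Meishan GD15 arrays 1 and 2 and all of Meishan GD26. GART fell in Meishan (-0.44 ± 0.14), with -0.42 and no call in Yorkshire, and the Meishan call was lost after median centring or cyclic loess.

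**Figure D4:**
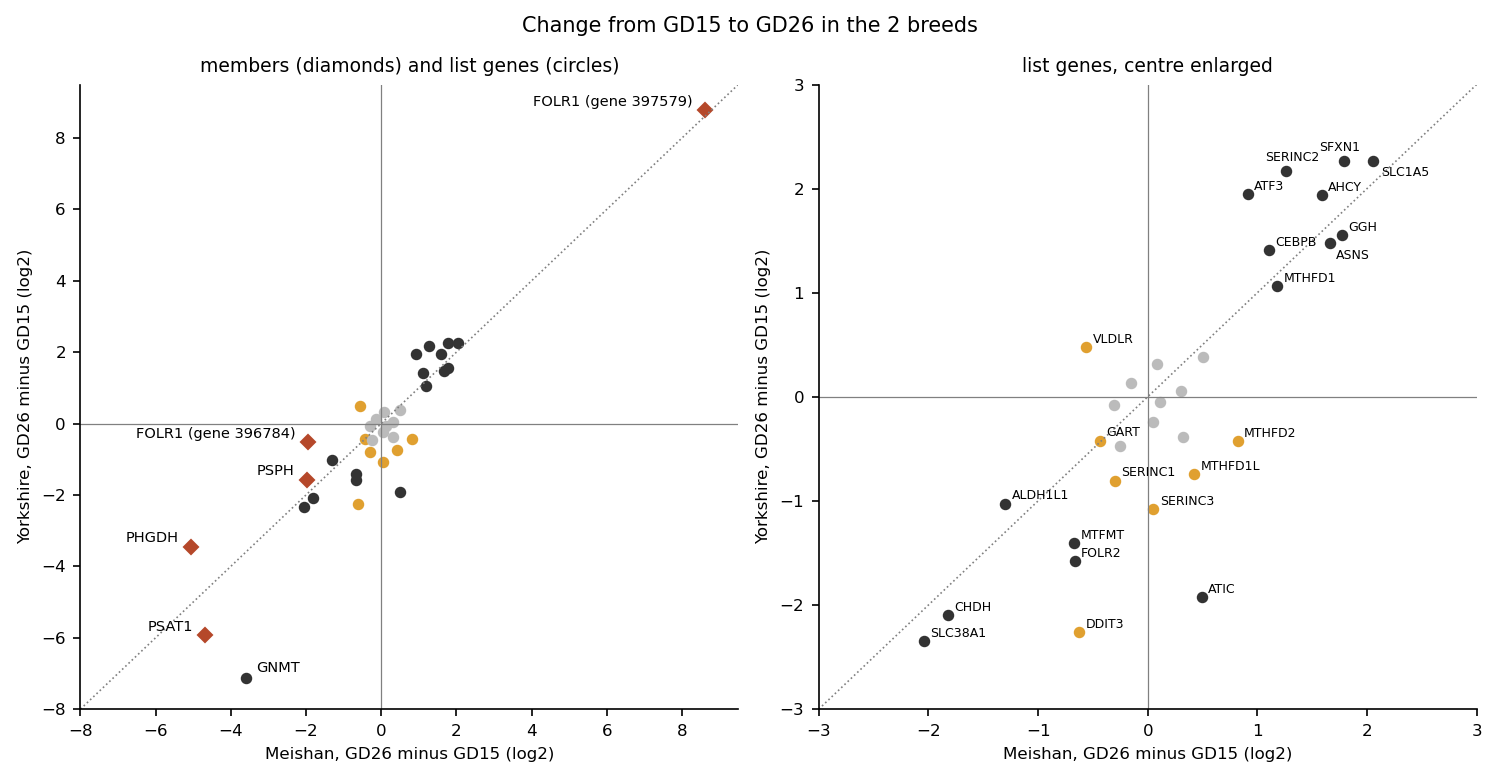
Change from GD15 to GD26 (log2) in Meishan (x axis) and Yorkshire (y axis) for the 5 probe sets (red diamonds) and the 32 list genes (circles: black called in both breeds, orange in 1, grey in neither), with the centre enlarged on the right and the line of equal change dotted. Changes of dim genes are fitted values and not bounds, and PHGDH and PSAT1 lie far below 0 on both axes, as does GNMT.

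From GD26 to GD50, 6 list genes rose and 5 fell in Meishan, against 8.2% and 10.2% of all probe sets, and 3 rose and 5 fell in Yorkshire, against 5.72% and 7.85%. The 5 that fell were the same: MTHFD1L, MTHFD2, AHCY, ATIC and CTH. CTH, which makes cysteine from a serine-derived intermediate, fell by 1.58 ± 0.28 in Meishan and by 2.23 ± 0.21 in Yorkshire. AHCY and MTHFD1L in Yorkshire were not called under any rescaling. MTHFD2 in Yorkshire (adjusted p = 0.0463 by limma) kept its call in 10 of the 18 runs that left out 1 array. In Meishan MTHFD2 kept its call in 13 of these 18 runs and AHCY in 14. MTHFD1L was dim in Yorkshire on both days and ATIC in Yorkshire on GD50, and CHDH, 1 of the 6 that rose in Meishan, was dim there on both days. SLC1A5 rose again in Meishan (1.20 ± 0.15), and FOLR2 and GGH rose in both breeds. For GGH in Meishan the change was 0.40 (adjusted p = 0.0412 by limma), and its 2 other probe sets were not called. That call was lost without Meishan GD15 array 2 or any 1 array of Meishan GD26 or GD50.

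Between the breeds, 3 list genes were higher and 1 lower in Yorkshire on GD15, against 4.92% and 4.87% of all probe sets. On GD26 there were 3 and 10, against 10.7% and 42.5%, and on GD50 2 and 11, against 10.9% and 45.6%. With the alternatives these counts went from 1 to 9 higher and 4 to 10 lower on GD26, and from 1 to 7 higher and 5 to 12 lower on GD50. SFXN1 was higher on both later days (0.87 ± 0.27 and 1.34 ± 0.27) and ATIC lower (-1.35 ± 0.27 and at least 1.47-fold). GNMT on both days and CHDH on GD50 were called while dim in both breeds, and DDIT3 on GD26 while dim in Yorkshire and near 100 in Meishan, and they are given no fold.

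The enzymes that pass the carbon of serine to folate or cleave glycine could hardly be followed. Of the list for serine use and glycine cleavage, 5 of 10 genes had a probe set and DLD alone passed the filter, with no call between days. SHMT1, which moves the carbon of serine to folate, was above 100 on 4 of the 18 arrays and highest at 7.23 (log2 intensity), and SDS and GCAT on none. TYMS, MTR and the folate transporter SLC46A1 were likewise dim, the last on all but 1 array.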

How the data were processed

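RNA of 18 endometrium samples was measured on the Affymetrix porcine array. The authors made the deposited log2 values with the affy and GCRMA packages (the submitters' notes also name RMA, versions not given in the sources used here), and the intensity files behind them were not used, so that background correction and normalization could not be varied at that level. Precision is limited by 3 arrays per group. Array controls (124 probe sets) were left out, and those brighter than 100 on 6 arrays or more (9320) entered the fits, the filter coming first as in the methods of the study.

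Day changes of list genes were fitted with limma 3.58.1 in R 4.3.3 (lmFit, eBayes) in 1 fit per breed, and breed differences and breed differences in change in 1 fit over the 6 groups, with Benjamini-Hochberg adjustment over the 9320. The code was tested on simulated data with planted changes. Groups came from the sample labels. Where all arrays of the dimmer group were under 100, a fold is a lower bound with 100 in its place, with none given for a pair of dim groups. The platform annotation gives 1 symbol for 10099 probe sets, several for 198 and none for 13826; coordinates were looked up by gene identifier. A list gene with several probe sets is represented by the brightest. Members and lists were chosen with earlier results of these data known. Named are all probe sets of the members, list genes called alike in both breeds in the serine and folate lists, up to 4 called genes of each list with the largest change in each day comparison and up to 3 in each breed comparison, and the 5 genes most correlated with each member (both FOLR1 genes, the second added after its values were seen). Genes named as dim, single markers and PTDSS1 were chosen after their values were seen. Python 3.11.15 with matplotlib 3.10.9 made the figures. The alternatives were the filter after the fit, 3 other filters, 3 rescalings, a floor at 100, only the 2 groups compared, a mean-variance trend, the replicate block, means over probe sets and leaving out each array, and, added after seeing the data, Yorkshire GD26 from array 1 alone.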

Additional observations from a re-analysis of the deposited data

Results flagged for a closer look

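The change between days differed between the breeds, by the test of that difference in limma, for 9 of the 32 genes of the list from GD15 to GD26, against 35.5% of all probe sets, and for 1 of the 32 from GD26 to GD50, against 4.37%. These were computed after the values had been seen. As Yorkshire change minus Meishan change on the log2 scale, the differences from GD15 to GD26 were -3.53 for GNMT, -2.42 for ATIC, -1.64 for DDIT3, -1.25 for MTHFD2, -1.17 for MTHFD1L, -1.13 for SERINC3, -0.92 for FOLR2, 1.03 for ATF3 and 1.04 for VLDLR. The median over all probe sets was -0.41, and after each of the 3 rescalings FOLR2 (-0.56 to -0.46) and MTHFD1L (-0.83 to -0.49) were no longer called. GNMT, DDIT3 and MTHFD1L were under 100 on all arrays of at least 1 of the groups, so their values are fitted and not bounds. The gene called from GD26 to GD50, CHDH, was under 100 on all arrays of the 4 groups and is given no value.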

How the results depend on the processing

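PHGDH on GD15, PSAT1 and FOLR1 gene 396784 on GD26 and FOLR1 gene 397579 on GD50 kept direction and call under all alternatives run. PHGDH on GD50 was no longer called without the filter or with only the 2 groups compared (-0.62 each), after median centring (-0.20), cyclic loess (-0.079) or quantile normalization (-0.19), and PSAT1 on GD50 after these rescalings (-0.15, -0.24 and -0.21). PSPH on GD26 was no longer called after quantile normalization (0.36), with only the 2 groups (0.35) or with Yorkshire GD26 array 1 alone (0.31). Newly called were PHGDH on GD26 (0.69, 0.81 and 0.74 in the order of rescalings above), FOLR1 gene 396784 on GD50 (0.74 by centring, 0.55 by loess) and PSPH on GD50 (0.52 by centring).

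Of list genes called, the 8 of Yorkshire GD50 against GD26 became 3 without the filter, 2 with only the 2 groups and 5 with array 1 alone. The 4 of the breed comparison on GD15 became 8 with the floor and 7 with only the 2 groups or the trend, and the 13 on GD26 became 8 with only the 2 groups and 5 with array 1 alone. MTHFD1L in Yorkshire from GD15 to GD26 changed sign after cyclic loess (0.22, not called). SERINC1, whose probe sets disagree, changed sign as their mean, to 0.61 in Yorkshire from GD15 to GD26 and 0.95 between breeds on GD26. The causes were not tested.

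With the replicate block PSPH on GD26 was not called (0.35, adjusted p = 0.0574), the 8 list genes of Yorkshire GD50 against GD26 became 5, and no other breed call of the members changed. The replicate numbers did not pair the samples: same-numbered arrays deviated together at r over 0.1 in all 3 pairs for Meishan GD50 against GD26 only.

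Leaving out 1 array in turn gave 0.30 to 0.37 for PSPH on GD26, -0.83 to -0.39 for PHGDH and -0.64 to -0.50 for PSAT1 on GD50, and list counts of 6 to 13 for Meishan GD50 against GD26 (11 with all arrays), 4 to 8 for Yorkshire GD50 against GD26 and 1 to 5 for the breeds on GD15. The share of lower among called probe sets moved with the scaling, from 79.8% (breeds, GD26), 80.8% (breeds, GD50) and 68.9% (Yorkshire, GD26 against GD15) to 53.8%, 51.9% and 51.4% with centred arrays, 46.5%, 48.5% and 47.8% with cyclic loess, and 61.8%, 61.2% and 56.4% with quantile normalization; for the breed difference in change from GD15 to GD26 it went from 75.5% to 48.6%, 42.4% and 56.6%. Dim values set the limit for PHGDH after GD15 and for FOLR1 gene 397579 on GD15.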
